A study of Sus scrofa with 9 samples.

Results

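PHB2, HAX1, OPA1, MFN1, MFN2, DNM1L, FIS1, MFF, PINK1 and BNIP3 are 10 nuclear genes whose proteins scaffold, fuse, divide or clear mitochondria. They were taken by gene symbol from a table of 23507 pig genes, and all 10 passed the filter on low counts that left 15012 genes. PHB2 and HAX1 were selected on measured values, because both were higher in the 2 heated groups than in the control. The other members were added by name with results of these data known. Levels against the control are therefore given as a description with no test, and tests were made between the heated groups.

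The study sequenced polyadenylated RNA of wild-type pig oocytes matured in vitro to metaphase II (MII), the stage at which the mature egg waits for fertilization. The HS + L-Asp group was heated to 41.5 °C for 24 h from the germinal vesicle (GV) stage, the stage before maturation starts, with the amino acid L-aspartate (L-Asp) in the medium, and was then kept at 38.5 °C up to MII. The HS (heat stress) group had the same heating without L-Asp, and the control group matured at 38.5 °C. Concentrations of 0.5, 1.0 and 1.5 mmol/L L-Asp are listed, with no word on which of them the libraries had. There were 3 libraries a group, and the design text gives 25 oocytes a group without saying how they were shared out. Oocytes entered culture with compact layers of cumulus cells, the somatic cells around the oocyte. Whether the 3 libraries of a group stem from different animals or culture wells is not stated, so every p-value reflects spread among libraries that may be technical.

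Mitochondria constantly join and divide. MFN1 and MFN2 fuse outer membranes, OPA1 fuses inner membranes and shapes cristae, and the dynamin DNM1L is drawn to the outer membrane by receptors such as MFF and FIS1 to divide the organelle. PHB2 forms ring-shaped complexes with PHB1 in the inner membrane, where they regulate proteases that act on OPA1, and HAX1 is a mitochondrial protein that protects cells from apoptosis. PINK1 marks damaged mitochondria for mitophagy, their removal by autophagy, and BNIP3 is an outer membrane receptor for the same removal. In mouse, loss of DNM1L or MFN1 from oocytes impairs their growth or maturation. The mature egg passes its mitochondria to the embryo.

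Libraries held 41693395 to 49008681 counts in HS + L-Asp, 46198885 to 53327419 in HS and 54965064 to 58361475 in the control. The 3 control libraries differed far less than libraries of the other groups. Their median index of dispersion (1 for independent counts of single reads) was 5.19 to 5.22, against 79.4 to 84.9 between HS + L-Asp libraries and 109 to 119 between HS libraries. Low counts here were coarser than single reads, so sampling alone can give an index above 1. How far the control libraries exceeded sampling noise is therefore not known. Because of this gap the control libraries were counted as 1 sample, and control means carry no SD. Genes encoded in mitochondrial DNA took 5.30% to 9.47% of counts in HS + L-Asp, 3.09% to 14.5% in HS and 10.0% to 10.1% in the control. All 14 oocyte markers in the table were detected in every library, and their summed level was 20454 to 23549 CPM in HS + L-Asp, 16114 to 20671 CPM in HS and 31977 to 32231 CPM in the control. BTG4 was the largest part of the control sum, with a mean of 15798 CPM. The mean log2 CPM of the list differed little, at 8.39 to 8.68 in HS + L-Asp, 8.30 to 8.37 in HS and 8.55 to 8.61 in the control. Against the control, 6 of the 14 lay above 0 for HS + L-Asp and 5 for HS. CPM here is the count scaled to a common library total by trimmed mean of M values (TMM).

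Of 28 cumulus and granulosa cell markers, 22 were in the table, with a summed level of 1194 to 1241 CPM in HS + L-Asp, 1226 to 1594 CPM in HS and 1166 to 1201 CPM in the control, most of it from RGS2 and VCAN. Between 6 and 7 of the 22 were at 0 in an HS + L-Asp library, 5 to 8 in an HS library and 8 to 10 in a control library. The mean log2 CPM of the list lay at -0.35 to 0.42 in HS + L-Asp, -0.24 to 0.46 in HS and -1.15 to -1.10 in the control. CYP11A1, a steroid-making enzyme of granulosa cells, measured 0.687 to 7.80 CPM in HS + L-Asp, 5.98 to 15.1 CPM in HS and 0 to 0.115 CPM in the control, while PTX3 was at 0 in all 9 libraries. The mean log2 level of the list, though not its sum, lay higher in all heated libraries than in the control, as did PHB2 and HAX1, and the part of these cells in the values below was not tested. In these bulk samples, fewer cells of a type and less RNA per cell cannot be told apart. Because cDNA was primed with oligo(dT), a longer poly(A) tail and more RNA cannot be told apart either.

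Per transcript length, HAX1 was the most abundant member in every group. In FPKM (fragments scaled to transcript length and library size, as deposited), HAX1 averaged 250.3 ± 42.0 in HS + L-Asp, 179 ± 33.9 in HS (SD, n = 3 each) and 80.7 in the control. It stood at or above the 96.0 percentile of the 15012 tested genes in all 9 libraries. PHB2 was second in both heated groups, at 56.0 ± 11.7 FPKM in HS + L-Asp and 53.2 ± 17.2 FPKM in HS (SD, n = 3 each), and below MFF and MFN1 in the control, at 11.9 FPKM. Its percentile was 93.4 to 95.3 in HS + L-Asp, 90.8 to 94.9 in HS and 80.1 to 81.7 in the control. In the control the order was HAX1, MFF, MFN1, PHB2, OPA1, DNM1L, PINK1, BNIP3, MFN2 and FIS1, and the only neighbours whose libraries overlapped were OPA1 and DNM1L. In HS the ranges of PHB2 and MFF overlapped, as did those of DNM1L and OPA1, PINK1 and BNIP3, and MFN2 and FIS1. In HS + L-Asp the overlapping neighbours were PHB2 and MFF, DNM1L and OPA1, OPA1 and BNIP3, BNIP3 and PINK1, and FIS1 and MFN2. FIS1 and MFN2 were the lowest in every group, with FIS1 at 0.764 ± 0.473 FPKM in HS + L-Asp, 0.591 ± 0.281 FPKM in HS (SD, n = 3 each) and 0.606 FPKM in the control.

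**Figure D1:**
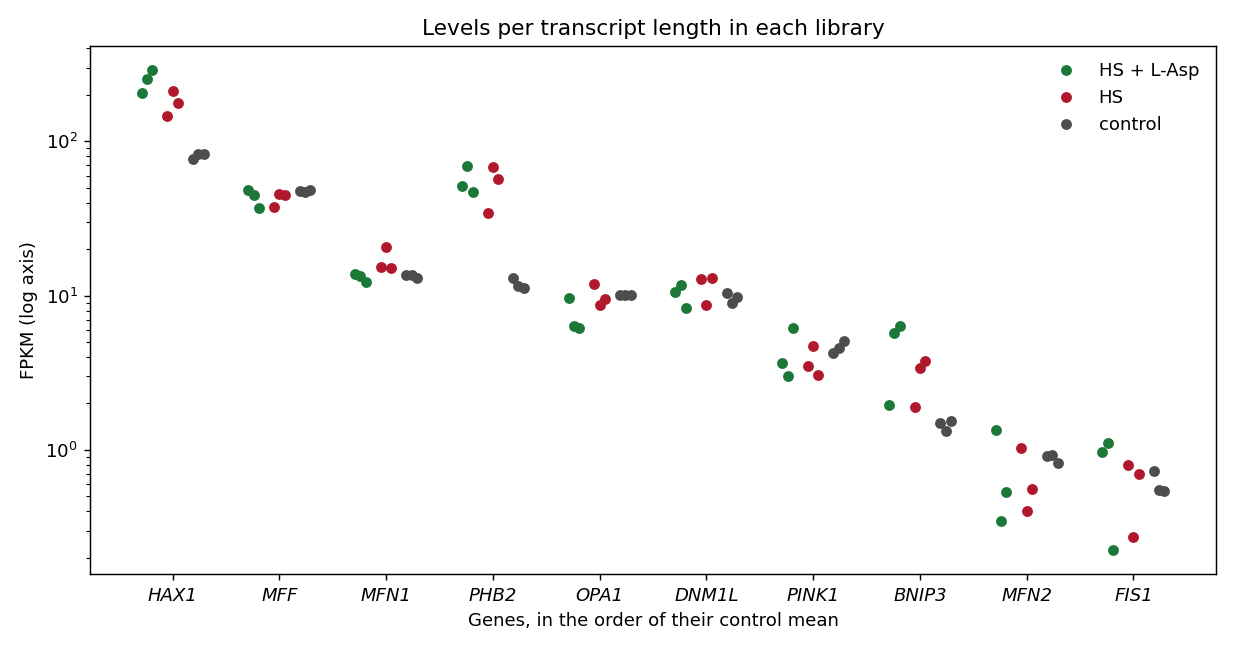
Level of the 10 members per transcript length, in FPKM on a log axis, with 1 point per library and groups shown as HS + L-Asp, HS and control. HAX1 lies at the top in all groups, PHB2 lies near 50 FPKM in heated libraries and near 12 FPKM in control libraries, and MFN2 and FIS1 lie lowest, with group means under 1 FPKM.

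PHB2 is the larger of the prohibitin partners and, in human and mouse cells, also a receptor of the inner membrane for mitophagy. The gene (ENSSSCG00000024655) lies on chromosome 5 from 63751558 to 63756478, plus strand, in the coordinates of the table, whose genome build is not given. PHB2 measured 114, 155 and 107 CPM in HS + L-Asp libraries 1 to 3, 77.9, 137 and 133 CPM in HS libraries, and 31.6, 28.2 and 27.1 CPM in control libraries. Every heated library lay above every control library, while the heated groups overlapped, with the lowest value in HS replicate 1. The fitted level was 4.33-fold that of the control in HS + L-Asp and 4.01-fold in HS. Leaving out any single library kept the PHB2 log2 fold change between 1.94 and 2.22 for HS + L-Asp and between 1.86 and 2.22 for HS. This contrast selected PHB2, and leaving out 1 library can hardly move a group mean far, so these ranges say little. A small nuclear RNA gene, SCARNA12, lies inside PHB2 on the same strand but had at most 0.0779 CPM in any library.

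HAX1 (ENSSSCG00000006552) lies on chromosome 4 from 95467632 to 95470290, minus strand. Its protein binds the mitochondrial disaggregase CLPB in human cells, and its loss causes neutropenia in humans. HAX1 measured 279, 345 and 399 CPM in HS + L-Asp libraries 1 to 3, 201, 262 and 250.2 CPM in HS libraries, and 115, 123 and 122 CPM in control libraries. The 3 groups did not overlap in CPM, with HS + L-Asp highest and the control lowest. In FPKM the heated groups overlapped, with HS replicate 2 (214) above HS + L-Asp replicate 1 (207). The fitted level was 2.85-fold that of the control in HS + L-Asp and 1.98-fold in HS, which are log2 fold changes of 1.51 and 0.99. No other gene of the table overlaps HAX1.

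**Figure D2:**
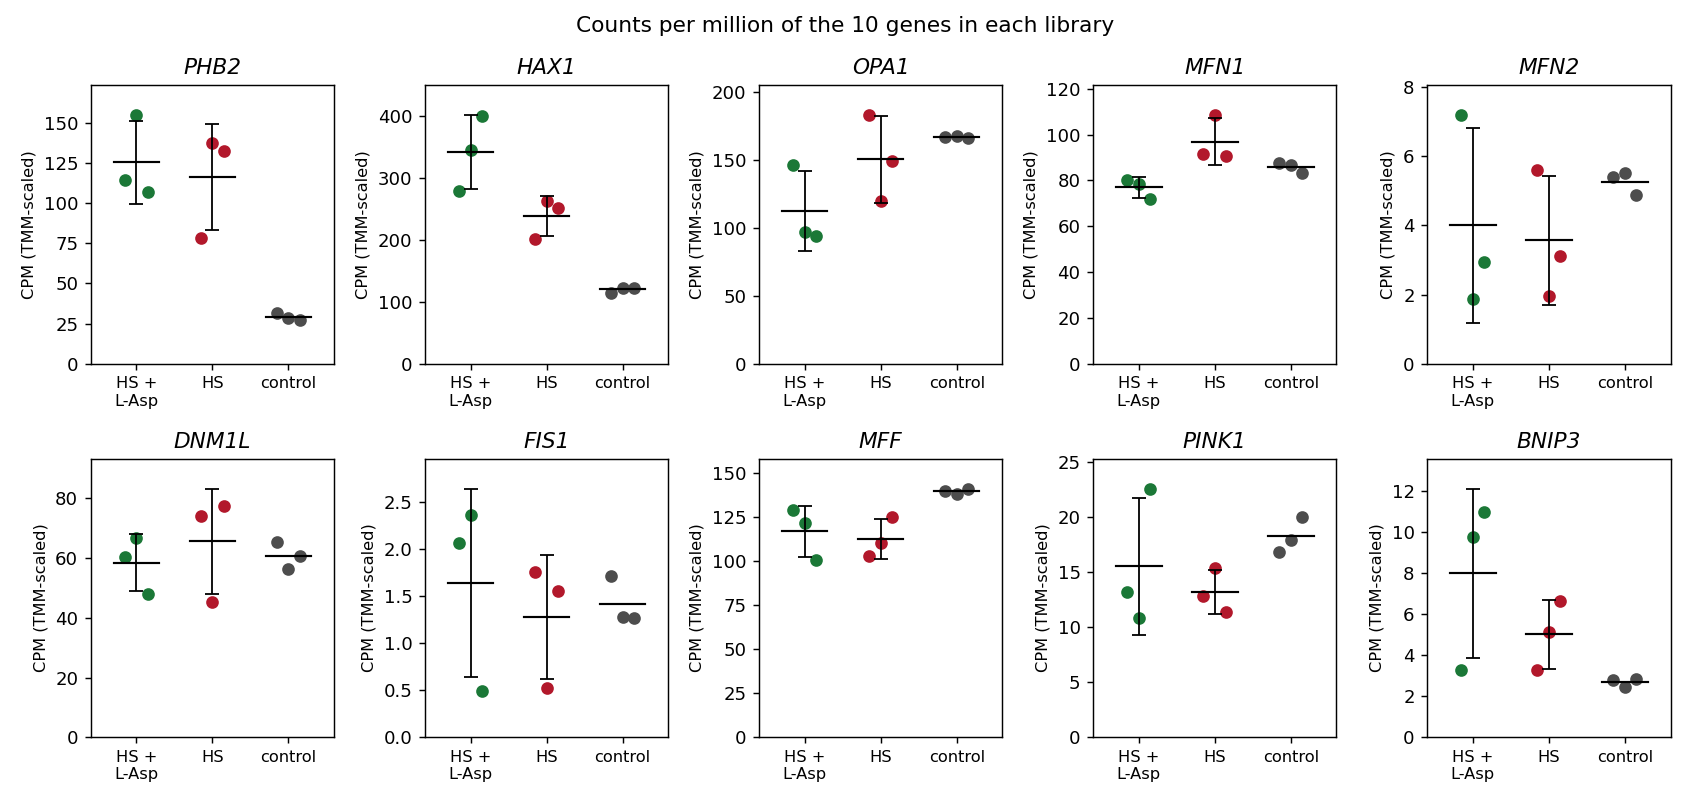
Level of each member in CPM by library, with 1 panel per gene, 1 point per library, and groups from left to right HS + L-Asp, HS and control. Bars mark the group mean, with the SD over 3 libraries for the heated groups and no SD for the control, whose libraries counted as 1 sample. PHB2, HAX1 and BNIP3 have all 6 heated libraries above the control, and MFF has all 6 below it.

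Among the fusion genes, OPA1 (chromosome 13, 130624823 to 130719083) measured 146, 96.7 and 94.1 CPM in HS + L-Asp, 183, 119 and 149 CPM in HS, and 167, 168 and 166 CPM in the control. All HS + L-Asp libraries of OPA1 lay below the control, whereas the HS libraries lay on both sides of it. The log2 fold change of OPA1 was -0.57 for HS + L-Asp and -0.15 for HS, each against the control. MFN1 (chromosome 13, 117404699 to 117442481) measured 80.3, 78.4 and 72.0 CPM in HS + L-Asp, 91.4, 109 and 90.8 CPM in HS, and 87.4, 86.9 and 83.3 CPM in the control. Its 3 groups did not overlap in CPM: HS was highest, the control lay between, and HS + L-Asp was lowest, over a narrow span. In FPKM, HS + L-Asp replicate 1 (13.8) lay above the control libraries (13.1 to 13.7). The log2 fold change of MFN1 was -0.16 for HS + L-Asp and 0.18 for HS, each against the control. MFN1 shares 5809 bases with GNB4 on the opposite strand, which measured 163 to 217 CPM, and the libraries do not mark strand, so reads of the shared stretch cannot be assigned with certainty.

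MFN2 (chromosome 6, 72028499 to 72056438), the second outer membrane fusion gene, was far lower than MFN1. It measured 7.20, 1.88 and 2.94 CPM in HS + L-Asp, 5.61, 1.97 and 3.11 CPM in HS, and 5.39, 5.51 and 4.87 CPM in the control. Replicate 1 was the highest library in both heated groups and exceeded every control library, while replicates 2 and 3 lay below the control. The coefficient of variation of MFN2 was 70.3% in HS + L-Asp and 52.3% in HS, against 5.70% and 10.4% for MFN1. The ratio of MFN1 to MFN2 in FPKM was 10.4, 38.9 and 22.8 in HS + L-Asp, 15.1, 51.6 and 27.0 in HS, and 15.1, 14.6 and 15.9 in the control. This ratio spread widely in both heated groups and was nearly constant in the control libraries.

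For fission, DNM1L (chromosome 5, 41571057 to 41636028), the GTPase that constricts the organelle, measured 60.5, 66.9 and 48.1 CPM in HS + L-Asp, 74.3, 45.3 and 77.3 CPM in HS, and 65.4, 56.2 and 60.8 CPM in the control. Its 3 groups overlapped, and its log2 fold change against the control was -0.05 for HS + L-Asp and 0.11 for HS. The sign of both DNM1L values changed on leaving out single libraries, with ranges of -0.15 to 0.07 for HS + L-Asp and -0.03 to 0.32 for HS. DNM1L shares 13762 bases with YARS2 on the opposite strand, which had at most 3.74 CPM.

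MFF (chromosome 15, 128768352 to 128799344), an outer membrane receptor for DNM1L, measured 129, 121 and 101 CPM in HS + L-Asp, 103, 110.3 and 125 CPM in HS, and 139, 138 and 141 CPM in the control. In CPM, all heated libraries of MFF lay below all control libraries, and the heated groups overlapped. In FPKM, HS + L-Asp replicate 1 (48.1) lay above control replicates 1 (47.4) and 2 (46.8). The log2 fold change of MFF against the control was small, -0.25 for HS + L-Asp and -0.31 for HS. FIS1 (chromosome 3, 8937453 to 8941865), another outer membrane adaptor, had raw counts of 102, 117 and 21 in HS + L-Asp, 87, 27 and 80 in HS, and 85, 67 and 66 in the control. In CPM these were 2.07, 2.36 and 0.497 in HS + L-Asp, 1.76, 0.526 and 1.56 in HS, and 1.72, 1.28 and 1.27 in the control. One low library in each heated group set the FIS1 spread, and its log2 fold change against the control was 0.21 for HS + L-Asp and -0.15 for HS, both of which changed sign on leaving out single libraries.

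In mitophagy, PINK1 (chromosome 6, 78863190 to 78884640), the kinase that accumulates on damaged mitochondria, measured 13.2, 10.9 and 22.6 CPM in HS + L-Asp, 12.8, 15.4 and 11.4 CPM in HS, and 16.9, 18.0 and 20.0 CPM in the control. In CPM, all HS libraries of PINK1 lay below the control, while HS + L-Asp replicate 3 was the highest library of all. In FPKM, HS replicate 2 (4.72) lay above control replicates 1 (4.28) and 2 (4.56). Its log2 fold change against the control was -0.23 for HS + L-Asp and -0.47 for HS. BNIP3 (chromosome 14, 140362127 to 140371907), a receptor gene that hypoxia switches on in many cell types, measured 3.28, 9.72 and 10.9 CPM in HS + L-Asp, 3.26, 5.14 and 6.63 CPM in HS, and 2.77, 2.44 and 2.83 CPM in the control. All heated libraries of BNIP3 exceeded the control, with replicate 1 of each heated group closest to it. The fitted BNIP3 level was 2.98-fold that of the control in HS + L-Asp and 1.87-fold in HS. No other gene of the table overlaps OPA1, MFN2, FIS1, MFF, PINK1 or BNIP3.

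Counted over the list, all 6 heated libraries lay above every control library for 3 of 10 members (PHB2, HAX1 and BNIP3), against 5.77% of the 15012 tested genes, and below it for 1 member (MFF), against 8.33%. HS + L-Asp lay wholly above the control for PHB2, HAX1 and BNIP3 (background 14.2%) and wholly below it for OPA1, MFN1 and MFF (background 19.6%). HS lay wholly above the control for PHB2, HAX1, MFN1 and BNIP3 (background 13.6%) and wholly below it for MFF and PINK1 (background 19.0%). These counts hold for CPM. In FPKM, HS + L-Asp overlapped the control for MFF and MFN1, and HS overlapped it for PINK1. Nothing is read from these counts, since the same contrasts chose members of the list. The median log2 fold change over the 10 members was -0.11 for HS + L-Asp and -0.02 for HS, each against the control, beside 0.01 and 0.00 over all tested genes. Above 0 lay 4 of 10 members for HS + L-Asp and 5 of 10 for HS. Both comparisons share the control libraries.

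Whether L-Asp during heating altered these transcripts was asked by comparing HS + L-Asp with HS. With edgeR's quasi-likelihood test and Benjamini-Hochberg adjustment over all 15012 genes, 0 of 10 members passed an adjusted p of 0.05, and 0 genes (0%) passed in the whole table, where 993 had an unadjusted p under 0.05 and DESeq2 called 179. For HAX1, whose 3 HS + L-Asp libraries all exceeded the 3 HS libraries, the mean was 341 ± 60.1 CPM in HS + L-Asp and 238 ± 32.3 CPM in HS (SD, n = 3 each). The fitted HAX1 difference was 0.52 ± 0.21 on the log2 scale (SE, 95% interval 0.06 to 0.98), with an edgeR adjusted p of 0.738 and a range of 0.251 to 1.00 over the alternatives run. In CPM, HAX1 was 1 of 10 members wholly above HS, a pattern shown by 6.31% of tested genes. In FPKM its heated groups overlapped. MFN1 was the 1 member wholly below HS, a pattern shown by 5.54% of tested genes, with 76.9 ± 4.38 CPM in HS + L-Asp and 97.0 ± 10.1 CPM in HS (SD, n = 3 each). The log2 fold change of MFN1 was -0.33 ± 0.21 (SE, 95% interval -0.78 to 0.12), with an edgeR adjusted p of 0.771.

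PHB2 showed the 2 heated groups close together, at 125 ± 25.9 CPM in HS + L-Asp and 116 ± 33.0 CPM in HS (SD, n = 3 each). The fitted PHB2 difference was 0.11 ± 0.26 on the log2 scale (SE, 95% interval -0.47 to 0.69; edgeR adjusted p = 0.980), and it turned to -0.11 without HS replicate 1 and to -0.05 without HS + L-Asp replicate 2. OPA1 averaged 112 ± 29.4 CPM in HS + L-Asp and 150.5 ± 31.9 CPM in HS (SD, n = 3 each), with a log2 fold change of -0.42 ± 0.25 (SE, 95% interval -0.97 to 0.12; edgeR adjusted p = 0.760). BNIP3 averaged 7.98 ± 4.11 CPM in HS + L-Asp and 5.01 ± 1.69 CPM in HS (SD, n = 3 each), with a log2 fold change of 0.67 ± 0.57 (SE, 95% interval -0.58 to 1.92; edgeR adjusted p = 0.864). The 2 receptors and the GTPase of fission differed by 0.05 ± 0.20 for MFF, 0.36 ± 1.08 for FIS1 and -0.17 ± 0.27 for DNM1L on the log2 scale (SE), none past the threshold. The intervals for FIS1 (-2.02 to 2.74) and MFN2 (-1.34 to 1.68) were wide, so the data leave a wide span of differences in either direction possible for these genes. PINK1 had a log2 fold change of 0.24 ± 0.37 (SE, 95% interval -0.58 to 1.05; edgeR adjusted p = 0.962). Over the list, 7 of 10 members lay above 0 with a median of 0.14, beside a median of -0.01 over all tested genes.

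**Figure D3:**
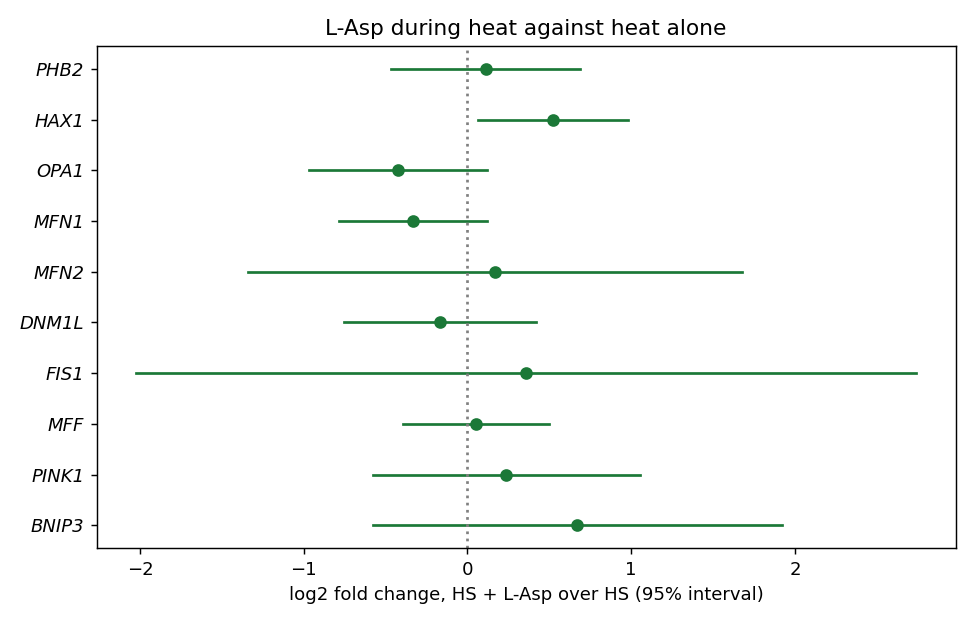
Log2 fold change of each member for HS + L-Asp against HS from the edgeR fit of all 15012 genes, with bars for the 95% interval. The interval of HAX1, from 0.06 to 0.98, is the only one that leaves out 0 before adjustment, and those of FIS1 and MFN2 are the widest.

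PHB1, the obligate partner of PHB2, was not a member and was named after its values were seen. PHB1 measured 33.2, 47.0 and 57.3 CPM in HS + L-Asp, 36.2, 60.1 and 47.2 CPM in HS, and 55.7, 51.6 and 54.2 CPM in the control. Its groups overlapped, and its log2 fold change was -0.23 ± 0.40 for HS + L-Asp against the control and -0.17 ± 0.40 for HS against the control (SE; edgeR adjusted p = 1.00 for both). The ratio of PHB2 to PHB1 in FPKM was 3.56, 3.42 and 1.94 in HS + L-Asp, 2.24, 2.37 and 2.91 in HS, and 0.589, 0.567 and 0.518 in the control. PHB2 stood above PHB1 per length in all 6 heated libraries and below it in the 3 control libraries. Since PHB2 was selected for being higher in both heated groups, nothing is read from this shift. Between HS + L-Asp and HS the ratio averaged 2.97 ± 0.90 and 2.51 ± 0.36 (SD, n = 3 each; exact permutation test, two-sided, p = 0.6, where 0.1 is the smallest p that 3 against 3 allows). The ratio of OPA1 to DNM1L in FPKM was 0.916, 0.547 and 0.741 in HS + L-Asp, 0.934, 0.999 and 0.730 in HS, and 0.964, 1.13 and 1.04 in the control (exact permutation test between the heated groups, two-sided, p = 0.3).

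**Figure D4:**
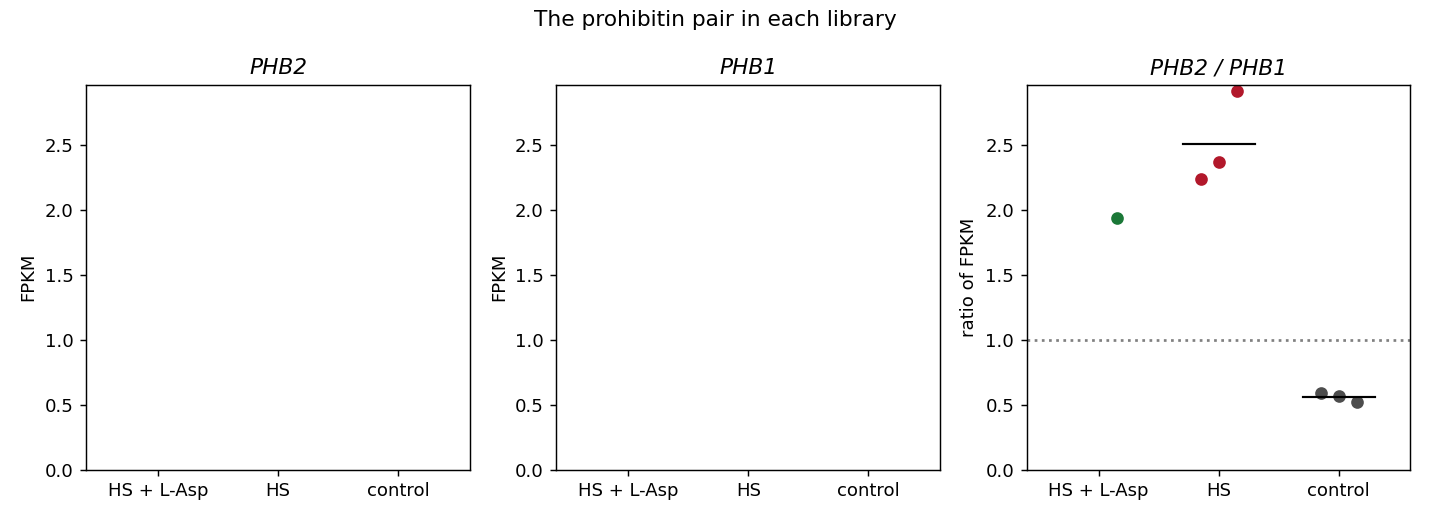
Panels for PHB2, its partner PHB1 and their ratio in FPKM in each library, with groups from left to right HS + L-Asp, HS and control. The vertical axes end too low, so all points of the PHB2 and PHB1 panels lie out of view. In the ratio panel the HS + L-Asp values of 3.56 and 3.42 also lie above the axis. The ratio of PHB2 to PHB1 lies at 1.94 to 3.56 in the heated libraries and at 0.518 to 0.589 in the control libraries.

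Genes with the most similar course were sought over the 7 samples used in the fit, among 5757 genes with a symbol and at least 10 CPM on average, by the root mean square difference of centred log2 CPM. Nearest to PHB2 were FAU (0.236), RNF181 (0.239), RPS7 (0.241), GAPDH (0.262) and PIGP (0.266). FAU and RPS7 encode ribosomal proteins, and GAPDH a glycolytic enzyme. FAU shares 907 bases with MRPL49 on the opposite strand. Nearest to HAX1 were TAF10 (0.067), RBM42 (0.1001), PRR14 (0.139), ING1 (0.148) and IVNS1ABP (0.170). HAX1 held rank 32 in the order for PHB2, and PHB2 rank 333 in the order for HAX1, at a difference of 0.413. The measure includes the contrast that selected PHB2 and HAX1, so these ranks are a description. FAU, GAPDH and PIGP lay under 10 CPM in the control and reached the minimum through the heated libraries.

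The rest of the pathway was counted on lists without the 10 members. In all 3 comparisons and all 7 lists edgeR called 0 genes, as it did in the whole table (0% for HS + L-Asp against control and for HS against control). There, 7582 and 7525 of 15012 genes lay above 0, 484 and 579 had an unadjusted p under 0.05, and DESeq2 called 64 and 183. With the control libraries counted as 3 samples edgeR called 269 and 433, so these counts rest on how the controls were treated. In these lists DESeq2 called PARL and BCL2L13, both lower in HS than in the control, and no other gene. Of 19 other tested genes of fusion and inner membrane shape, 9 lay above 0 for HS + L-Asp against control (median -0.09) and 9 for HS against control (median -0.17), with 2 and 4 at an unadjusted p under 0.05. Of 8 other fission genes, 4 and 3 lay above 0 (medians -0.08 and -0.24), none at that p. Of 22 other mitophagy genes, 8 and 11 lay above 0 (medians -0.13 and -0.01), with 1 gene at that p in each.

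PARL, a rhomboid protease of the inner membrane that cuts PINK1 in human cells, was far more abundant than any member. PARL measured 3528, 3238 and 3544 CPM in HS + L-Asp, 2887, 2059 and 3232 CPM in HS, and 5873, 6004 and 5967 CPM in the control. All heated libraries lay below the control, with a log2 fold change of -1.13 ± 0.28 for HS against the control (SE; edgeR adjusted p = 0.563). PARL was named for its large change between HS and control, so nothing is read from its place below the control. OMA1, the protease that cuts OPA1 under stress, measured 119, 123 and 137 CPM in HS + L-Asp, 79.8, 83.3 and 109.8 CPM in HS, and 190.0, 187 and 196 CPM in the control. The OMA1 groups did not overlap, with HS lowest and HS + L-Asp between HS and the control. Its log2 fold change was -1.07 ± 0.28 for HS against the control (SE; edgeR adjusted p = 0.590) and 0.47 ± 0.21 for HS + L-Asp against HS (SE; edgeR adjusted p = 0.738).

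BCL2L13, a BCL2-like protein of the outer membrane that serves as a mitophagy receptor, measured 41.8, 58.5 and 77.9 CPM in HS + L-Asp, 15.8, 37.8 and 48.3 CPM in HS, and 147, 149 and 138 CPM in the control. All heated libraries lay below the control, and its log2 fold change for HS against the control was -2.09 ± 0.49 (SE; edgeR adjusted p = 0.472). Its direction was opposite to that of the receptors PHB2 and BNIP3. BCL2L13 was named for its large change between HS and control, and PHB2 was selected on it, so nothing is read from this. SQSTM1, an autophagy adaptor, measured 353, 357 and 463 CPM in HS + L-Asp, 269, 303 and 305 CPM in HS, and 287, 276 and 293 CPM in the control. The HS + L-Asp libraries of SQSTM1 all lay above the others (edgeR adjusted p = 0.738 against HS).

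For HAX1 partners and matrix proteostasis, 12 of 16 other tested genes lay above 0 for HS + L-Asp against control (median 0.13) and 8 of 16 for HS against control (median 0.02), with 2 at an unadjusted p under 0.05 in each. LONP1, the protease of the mitochondrial matrix, measured 15.4, 17.1 and 19.0 CPM in HS + L-Asp, 11.9, 17.3 and 18.3 CPM in HS, and 6.66, 6.14 and 6.02 CPM in the control. All heated libraries of LONP1 exceeded the control (log2 fold change 1.34 for HS, edgeR adjusted p = 1.00). LONP1 was named for its large change between HS and control, so nothing is read from its place above the control. PARL, named from this list by the same rule, lay below the control in all heated libraries. CLPB, the partner named above, lay between 5.29 and 8.90 CPM in all libraries. Of 21 tested genes of protein import, 12 lay above 0 for HS + L-Asp (median 0.25) and 13 for HS (median 0.30), each against the control. At an unadjusted p under 0.05 were 3 for HS + L-Asp, all lower, and 2 for HS, 1 higher and 1 lower. Of 14 genes of biogenesis and upkeep of mitochondrial DNA, 6 and 4 lay above 0 (medians -0.10 and -0.32), with 1 and 3 at that p, all lower. Of 13 transport and tethering genes, 8 and 7 lay above 0 (medians 0.21 and 0.00), none at that p.

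Between HS + L-Asp and HS, medians of these 7 lists ran from -0.19 (transport and tethering) to 0.21 (biogenesis and upkeep of mitochondrial DNA). NRF1, a transcription factor for respiratory genes, measured 8.07, 9.20 and 7.44 CPM in HS + L-Asp, 4.21, 1.40 and 1.23 CPM in HS, and 9.37, 12.3 and 11.3 CPM in the control. Its HS libraries lay below all others (log2 fold change for HS + L-Asp against HS 1.85 ± 0.58, SE; edgeR adjusted p = 0.738). APOOL, a subunit of the complex that holds crista junctions, ran the other way, with 7.38, 1.62 and 1.35 CPM in HS + L-Asp, 22.3, 12.7 and 8.99 CPM in HS, and 11.2, 11.5 and 11.4 CPM in the control. The log2 fold change of APOOL for HS + L-Asp against HS was -2.08 ± 0.67 (SE; edgeR adjusted p = 0.738). Among fission regulators, MTFR2 measured 102, 89.2 and 70.2 CPM in HS + L-Asp, 209.5, 109.0 and 110.5 CPM in HS, and 138, 136 and 129 CPM in the control. Like MFN1, MTFR2 had every HS + L-Asp library below every HS library (edgeR adjusted p = 0.738). Of all tested genes, 5.54% lay wholly below HS in this way and 6.31% wholly above it. NRF1, APOOL and MTFR2, like OMA1 and SQSTM1 above, were named for a small p in this comparison. Nothing is therefore read from their separation of the heated groups.

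**Figure D5:**
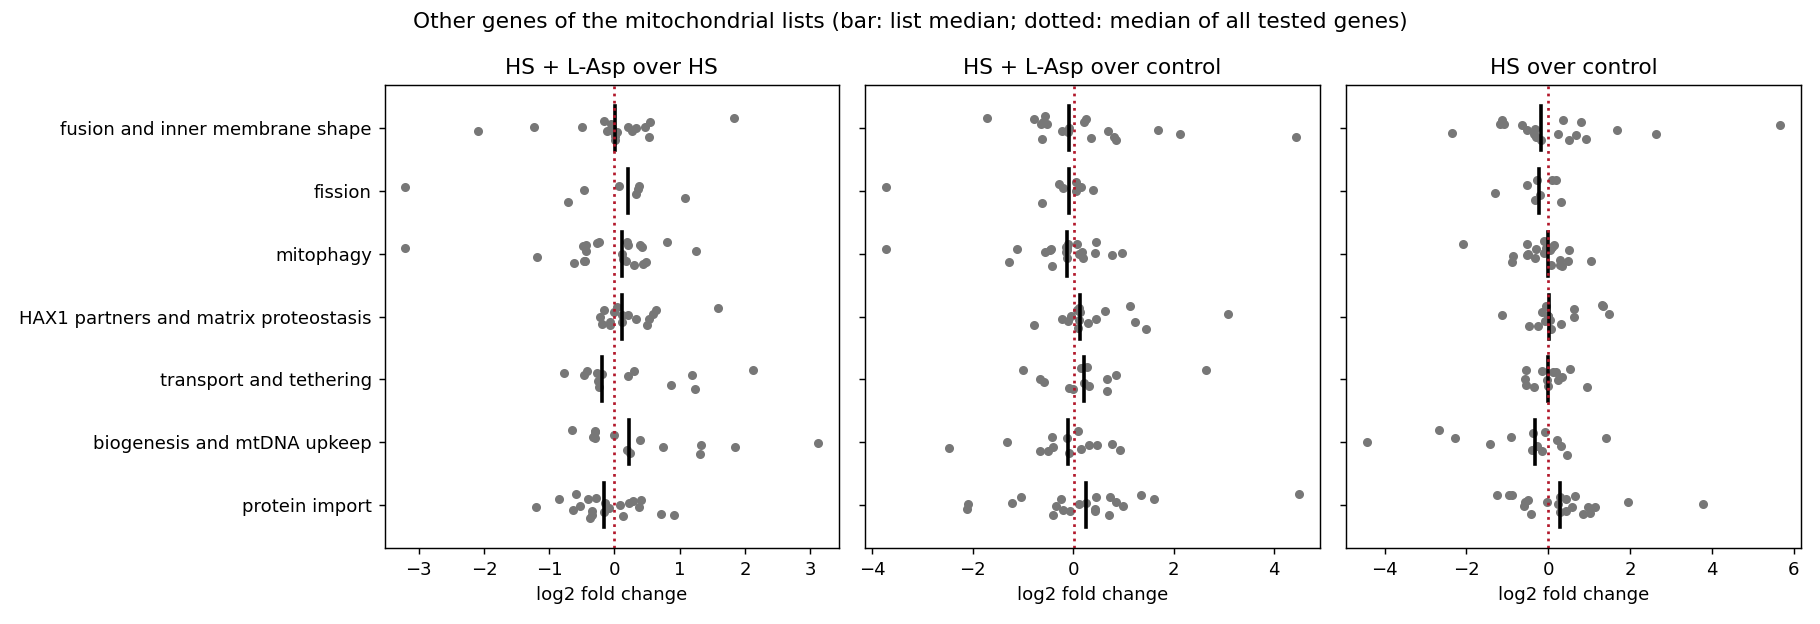
Log2 fold changes of the other genes of each list, without the 10 members, for the comparisons HS + L-Asp against control, HS against control and HS + L-Asp against HS, with 1 point per gene and a line at the list median. Genes of each list lie on both sides of 0, and the list medians lie between -0.32 and 0.30.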

How the data were processed

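Polyadenylated RNA of 9 oocyte libraries was amplified by PCR from oligo(dT)-primed cDNA without strand marks or molecular identifiers, per the labels' protocols. The deposited table gives, per the file headers, whole-number counts and FPKM values per library, both made by the authors. The tools listed in the submitters' processing notes, with no roles, are StringTie 2.1.6, HISAT2 2.2.1, cutadapt 1.9, edgeR and DESeq2. Genome build and counting method: not given in the sources used here. Counts of 4 were more frequent than neighbouring values (604 genes in control replicate 1, against 330 with 3 counts and 216 with 5), so low counts are coarser than single reads. Left unused were 6 additional columns holding per-sample values. A symbol was present for 13893 genes, was added by gene ID for 116 and was lacking for 9498.

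The members and lists were chosen with earlier results of these data known. The 3 control libraries entered as 1 library, their rounded mean count, because they differed far less than libraries of the other groups (median index of dispersion 5.19 to 5.22, against at least 79.4). Independent counts of single reads give 1, and coarser counts give more. Genes passing filterByExpr on the 9 libraries (15012) were fitted with edgeR 4.0.16 in R 4.3.3 (TMM, glmQLFit with robust estimation, glmQLFTest, 4 residual degrees of freedom, prior count 2) with 1 mean per group, and p-values were adjusted by Benjamini-Hochberg over the whole table. Code was tested on simulated data. FPKM served for levels between genes and for ratios. Named were the 10 members, the 5 genes nearest PHB2 and HAX1, and from each list called genes, or else the 3 of smallest p between HS + L-Asp and HS and the 3 of largest change between HS and control with at least 10 CPM. PHB1 and CLPB were named outside that rule after their values were seen, as partners of members, and the text omits some genes that the rule gives. DESeq2 1.42.0, other scalings and filters, all 9 libraries as replicates, a replicate block and leaving out each library were the alternatives. No mature sequences, promoters or proteins were used here.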

Additional observations from a re-analysis of the deposited data

Results flagged for a closer look

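In CPM, MFN1, the outer membrane fusion gene, had all 3 HS + L-Asp libraries below the averaged control and all 3 HS libraries above it. In FPKM, HS + L-Asp replicate 1 (13.8) lay above the control libraries (13.1 to 13.7), so the separation from the control depends on the scaling. Of all tested genes, 19.6% had HS + L-Asp wholly below the control and 13.6% had HS wholly above it. The share with both patterns was not counted. The MFN1 log2 fold changes against the control, -0.16 for HS + L-Asp and 0.18 for HS, were each smaller than their SE of 0.29. The difference between HS + L-Asp and HS was -0.33 on the log2 scale, with an edgeR adjusted p of 0.771 and a range of 0.341 to 1.00 over the alternatives run, so it did not pass the threshold. MFN1 shares part of its sequence with GNB4 on the opposite strand, and the part of GNB4 reads in the MFN1 counts was not tested.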

How the results depend on the processing

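The number of genes edgeR called over the whole table was 0 in each comparison and depended on how the controls and the spread were treated. In the order HS + L-Asp against control, HS against control and HS + L-Asp against HS, the counts were 269, 433 and 2 with all 9 libraries as replicates, 64, 183 and 179 with DESeq2, and 3, 9 and 2 with no filter on low counts. Recomputing the filter on 7 libraries gave 2 calls for HS + L-Asp against HS and 0 for the others. Leaving out 1 library gave 0 to 1, 0 to 1 and 0 to 3 calls, with calls arising without HS + L-Asp replicate 1 or 2 or without HS replicate 1 or 3. With a replicate block the counts were 223, 378 and 0, and 0 with the 6 heated libraries alone. Replicate numbers did not pair the libraries (correlation of deviations 0.0518, -0.0214 and 0.0104 for numbers 1 to 3 between the heated groups).

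For the members against the control, every alternative value (160 per comparison) moved by less than 1 SD between heated libraries. Leaving out 1 of 3 libraries can hardly move a group mean that far, so this limit says little about those values. Signs against the control changed for DNM1L (-0.15 to 0.07 for HS + L-Asp, -0.03 to 0.32 for HS). They also changed for FIS1 (-0.14 to 0.64 for HS + L-Asp, -0.45 to 0.22 for HS). For HS + L-Asp against HS, no member passed the threshold under any alternative run, and 8 of 170 values changed sign, all on leaving out a library. These were PHB2 (-0.11 without HS replicate 1, -0.05 without HS + L-Asp replicate 2, range -0.11 to 0.25), MFN2 (-0.12 without HS replicate 2, -0.57 without HS + L-Asp replicate 1, range -0.57 to 0.66), FIS1 (-0.013 without HS replicate 2, range -0.013 to 0.79), MFF (-0.01 without HS replicate 1, -0.022 without HS + L-Asp replicate 1, range -0.022 to 0.15) and PINK1 (-0.13 without HS + L-Asp replicate 3, range -0.13 to 0.46). HAX1 stayed between 0.39 and 0.65 and BNIP3 between 0.38 and 1.04. The cause was not tested. With 3 libraries a group and a control counted once, the spread between libraries left wide intervals for FIS1 and MFN2.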
